A study of Arabidopsis thaliana with 15 samples.

Results

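The genes described here were the type-A response regulators of Arabidopsis, followed in leaves during a short high light (HL) stress and the recovery (R) from it. The rule named 9 genes by their AGI codes, ARR3 to ARR9, ARR15 and ARR16, and 8 of them had a row among the 21593 genes of the expression table. ARR3 (AT1G59940) was not analysed here. The measured genes were ARR4 (AT1G10470), ARR5 (AT3G48100), ARR6 (AT5G62920), ARR7 (AT1G19050), ARR8 (AT2G41310, listed in the table as RR3), ARR9 (AT3G57040), ARR15 (AT1G74890) and ARR16 (AT2G40670). RNA sequencing was done on leaves of Col-0 wild-type plants kept for 6 to 7 weeks in days of 8 h light, and the study's methods state 3 biological replicates for each of 5 conditions. GL leaves stayed at the growth light of 100 µmol photons m-2 s-1 and were taken before any HL. HL15 and HL60 leaves had 15 min and 60 min at 1000 µmol photons m-2 s-1, and R15 and R60 leaves had 60 min of HL and then 15 min and 60 min back at growth light. All 15 libraries came from the same ecotype and tissue, without mutants, hormone or inhibitor, and whether a replicate was 1 plant or a pool was not given in the sources used here.

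Cytokinins are plant hormones whose signal travels through a phosphorelay: a membrane-bound histidine kinase receptor (AHK) passes phosphate through histidine phosphotransfer proteins (AHP) to response regulators in the nucleus. Type-B response regulators bind DNA and switch on cytokinin target genes, and the type-A regulators are among the first of these targets. Type-A proteins carry a receiver domain and a short tail without a DNA-binding domain, and they dampen the relay, so their transcripts are widely read as a gauge of cytokinin output. Most of the genes come in pairs of close relatives, namely ARR3 with ARR4, ARR5 with ARR6, ARR7 with ARR15 and ARR8 with ARR9.

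Library depth was estimated at 14403180 to 28102714 reads, and 1 read was worth 0.678 to 1.24 normalized counts. No 2 replicate libraries agreed within sampling noise. The 4 leaf photosynthetic markers summed to 583013 to 752228 normalized counts in R60 libraries, against 1152200 to 1167440 in GL libraries. At R60 RCA, LHCB1.3 and LHCB2.1 were lower, and the Rubisco small subunit gene RBCS1A did not pass. The guard cell markers FAMA and MYB60 summed to 108 to 154 normalized counts at HL15, against 255 to 328 at GL. Both passed as lower at HL15, with log2 fold changes of -1.04 (adjusted p = 0.000861) and -1.27 (adjusted p = 0.00563) in the limma fit, and neither passed at HL60, R15 or R60. Of the phloem and vein markers, ATHB8 was lower at HL15 and R60 and the sucrose carrier SUC2 at HL60, R15 and R60, and the pair summed to 1379 to 1591 normalized counts at HL60 and 2450 to 2757 at GL. The flower markers AG and AP3 did not pass against GL in any condition. The root marker WOX5 lay at 4.79 to 8.03 normalized counts at R60, only a few reads, and at 0 in all GL libraries. The root markers CASP1 and COBL9 were not analysed here. In RNA from whole leaves, fewer cells of a type and less RNA per cell cannot be told apart, and the part of these shifts in the results below was not tested.

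Type-B regulators recognise short DNA words built on the letters AGATT or AGATC, so the 250 bases upstream of the annotated start are shown for the 4 genes with the largest changes against GL, which form 2 pairs (RefSeq annotation, TAIR10.1). Capitals mark each AGATT or AGATC on either strand, and the sequences run 5′ to 3′ towards the gene. The stretches lie at chr1:6579315-6579564 on the minus strand (ARR7), chr1:28133026-28133275 on the minus strand (ARR15), chr2:17221590-17221839 on the plus strand (ARR8) and chr3:21108809-21109058 on the plus strand (ARR9).
ARR7: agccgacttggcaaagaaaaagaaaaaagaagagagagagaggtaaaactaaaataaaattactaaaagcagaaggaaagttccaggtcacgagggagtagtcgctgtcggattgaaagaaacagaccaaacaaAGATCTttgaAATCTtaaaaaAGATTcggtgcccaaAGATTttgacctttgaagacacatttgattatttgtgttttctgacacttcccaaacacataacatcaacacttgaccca
ARR15: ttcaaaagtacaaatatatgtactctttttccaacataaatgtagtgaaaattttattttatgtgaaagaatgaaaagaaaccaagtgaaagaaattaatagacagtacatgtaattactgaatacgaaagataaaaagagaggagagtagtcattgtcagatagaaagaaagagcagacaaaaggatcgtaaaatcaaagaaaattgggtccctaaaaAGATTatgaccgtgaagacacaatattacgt
ARR8: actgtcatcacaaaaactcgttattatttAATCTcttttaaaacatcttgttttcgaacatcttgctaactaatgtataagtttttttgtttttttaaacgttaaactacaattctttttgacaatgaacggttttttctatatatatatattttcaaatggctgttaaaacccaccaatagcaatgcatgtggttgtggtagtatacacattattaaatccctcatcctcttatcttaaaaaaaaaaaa
ARR9: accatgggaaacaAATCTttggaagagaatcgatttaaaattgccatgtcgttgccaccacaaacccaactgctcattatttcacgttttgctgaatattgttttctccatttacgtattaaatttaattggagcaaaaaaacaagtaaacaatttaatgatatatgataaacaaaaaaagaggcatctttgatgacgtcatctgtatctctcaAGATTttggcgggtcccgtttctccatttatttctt
ARR7 held 5 matches, 3 of AGATT and 2 of AGATC, and the AGATC matches were the 2 strands of 1 overlapping word that starts 116 bases before the gene. ARR15 and ARR8 held 1 match each and ARR9 held 2. Of the other regulators, ARR4 had 1, ARR5 had 2, ARR6 had 3 and ARR16 had 5 matches. All 8 promoters held at least 1 of the words, as did 73.2% of 27443 promoters of coding genes of the same length, and 2.52% of those held 5 or more. AGATT was found in 6 of the 8, against 63.7% of all promoters, and AGATC in 4 of the 8, against 26.6%. A match is a stretch of letters and not a measured binding site.

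The genes lie on chromosomes 1, 2, 3 and 5. ARR6 (chr5:25252007-25254318, minus strand) overlaps the coding gene AT5G62910 (chr5:25250256-25252354, plus strand) by 348 bases where both genes end, and 22.3% of its 31-base words also occur in that gene. Reads from this stretch cannot be given to one gene with certainty where the library does not keep the strand, and whether it did was not given in the sources used here. AT5G62910 had 323 ± 5.93 normalized counts at HL60 and 170 ± 2.81 at GL (SD, n = 3 each), and its fold changes are given beside those of ARR6 below. ARR8 shared 9.3% of such words with other genes, ARR9 1.13% and ARR4 0.753%, the last with ARR3, and the other 4 regulators shared none.

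In growth light, ARR4 was the most abundant of the 8 regulators. Per kb of its longest transcript it stood at 1039 ± 140 normalized counts (SD, n = 3), followed by ARR9 at 481 ± 23.0, ARR7 at 471 ± 60.4, ARR8 at 259 ± 8.84, ARR6 at 254 ± 24.6, ARR5 at 134 ± 5.47, ARR15 at 107 ± 25.3 and ARR16 at 20.8 ± 1.41. The libraries of ARR9 and ARR7, of ARR8 and ARR6 and of ARR5 and ARR15 overlapped in range on this scale. Within each GL library ARR5 lay above ARR15. The order of ARR9 and ARR7, and that of ARR8 and ARR6, changed between GL libraries. ARR4 lay above and ARR16 below all the others in every GL library. Summed over the 8 genes, the family had 2764 ± 223 normalized counts per kb at GL, 723 ± 16.5 at HL15 and 2321 ± 270 at HL60. In recovery the sum was 1971 ± 114 at R15 and 1854 ± 368 at R60.

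**Figure D1:**
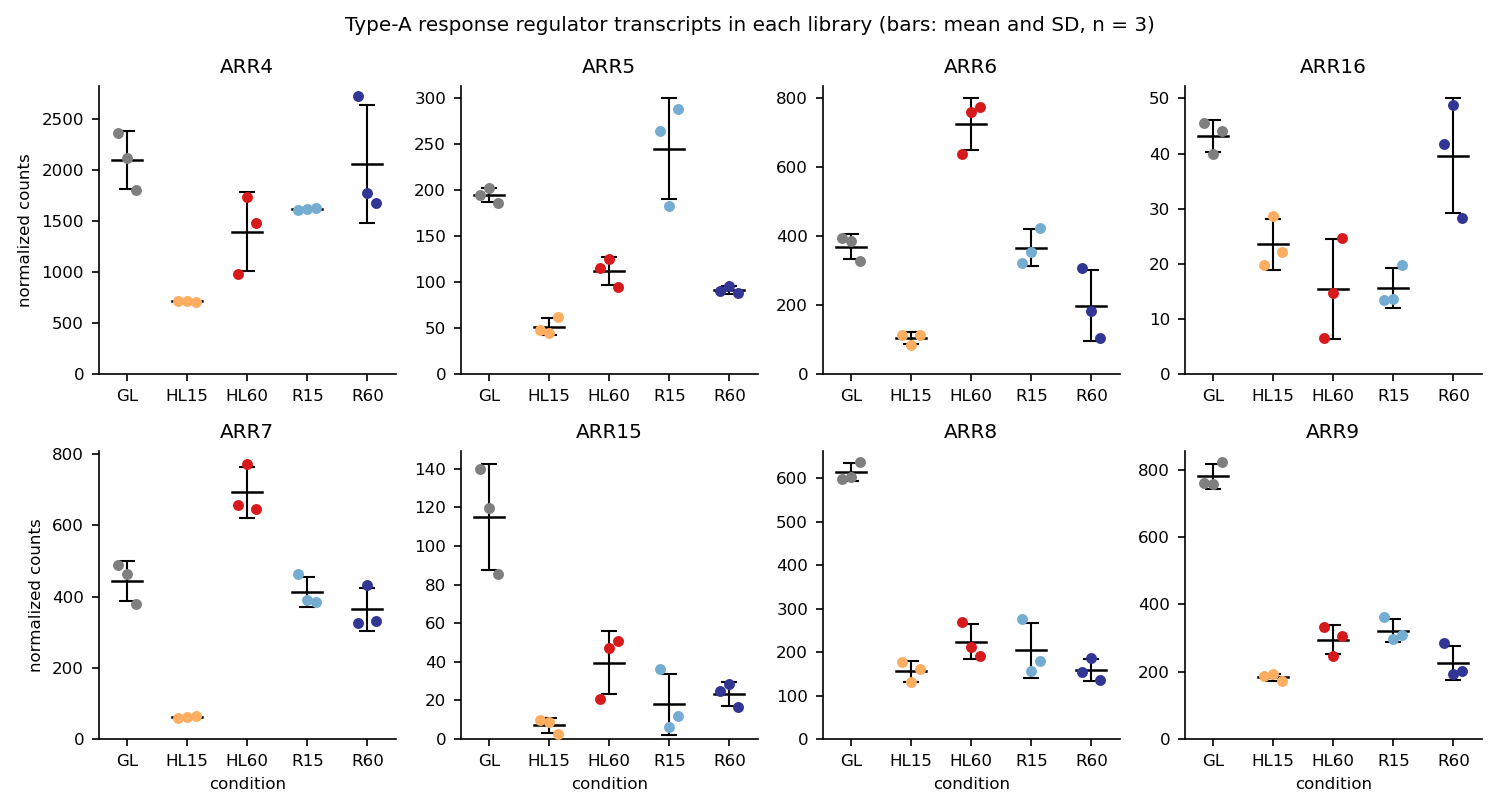
Normalized counts of each regulator (vertical axis, from 0) in every library of the 5 conditions (horizontal axis), with points for libraries and black bars for the mean and SD of 3. ARR7 lies at 58.2 to 65 at HL15 and at 646 to 774 at HL60, while ARR8, ARR9 and ARR15 stay below their GL libraries in every later condition.

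The first comparison asked what 15 min of HL did to the family. Within that time 7 of the 8 regulators fell below GL, none rose, and ARR16 did not pass the test. At an unadjusted p under 0.05 the limma fit had 8 lower and 0 higher. Over all 20512 genes tested, 13.2% were called lower and 11.4% higher in this comparison, at an adjusted p under 0.05 in limma on log2(value + 1). The median log2 fold change was -1.94 over the 8 regulators and -0.03 over all genes. In all 8 genes, ARR16 included, each HL15 library lay below each GL library, which held for 25.1% of all genes tested.

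ARR7 and ARR15 are close relatives known from the shoot meristem, where the stem cell factor WUSCHEL represses them. The meristem markers WUS, CLV3 and STM were not analysed here. ARR7 had 58.2, 62.4 and 65 normalized counts at HL15, against 489, 463 and 380 at GL. The HL15 libraries were tight and far below GL, a log2 fold change of -2.82 ± 0.135 (SE) or 7.05-fold lower (adjusted p = 2.84e-08). ARR15 had 9.69, 8.81 and 2.83 normalized counts at HL15, against 140, 120 and 85.8 at GL. These HL15 values stand for 13, 13 and 3 reads, so the size of the fall is loosely known: the log2 fold change was -3.95 ± 0.549, with a 95% interval of -5.12 to -2.77 (adjusted p = 0.000166). For genes this low the added 1 makes the fitted change smaller than the ratio of the counts.

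ARR5 and ARR6 are the regulators most used as cytokinin reporters. ARR5 had 47.7, 44.7 and 62.2 normalized counts at HL15, against 195, 202 and 187 at GL. ARR6 had 115, 84.0 and 113 at HL15, against 396, 385 and 329 at GL. The pair fell together, by 1.91 ± 0.18 on the log2 scale for ARR5 (SE, adjusted p = 4.54e-06) and by 1.83 ± 0.273 for ARR6 (adjusted p = 0.0003). The overlapping gene AT5G62910 had a log2 fold change of 0.05 there (adjusted p = 0.796).

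In the next pair, ARR8 had 178, 130 and 160.2 normalized counts at HL15, against 599, 603 and 637 at GL, and ARR9 had 186, 193 and 171 at HL15, against 761, 757 and 824 at GL. Their falls were alike in size, with log2 fold changes of -1.98 ± 0.199 for ARR8 (SE, adjusted p = 9.3e-06) and -2.09 ± 0.149 for ARR9 (adjusted p = 3e-07).

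ARR4, known to bind the red light receptor phytochrome B, had 722, 719 and 703 normalized counts at HL15, against 2364, 2121 and 1801 at GL. It fell by 1.54 ± 0.193 on the log2 scale (SE, adjusted p = 6.87e-05), and the part of the guard cell markers that were lower in the same libraries was not tested. ARR16, the least abundant of the 8, had 19.8, 28.7 and 22.1 normalized counts at HL15, against 45.6, 40.0 and 44.0 at GL. Its log2 fold change of -0.86 (95% interval -1.65 to -0.07) had an adjusted p of 0.105.

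**Figure D2:**
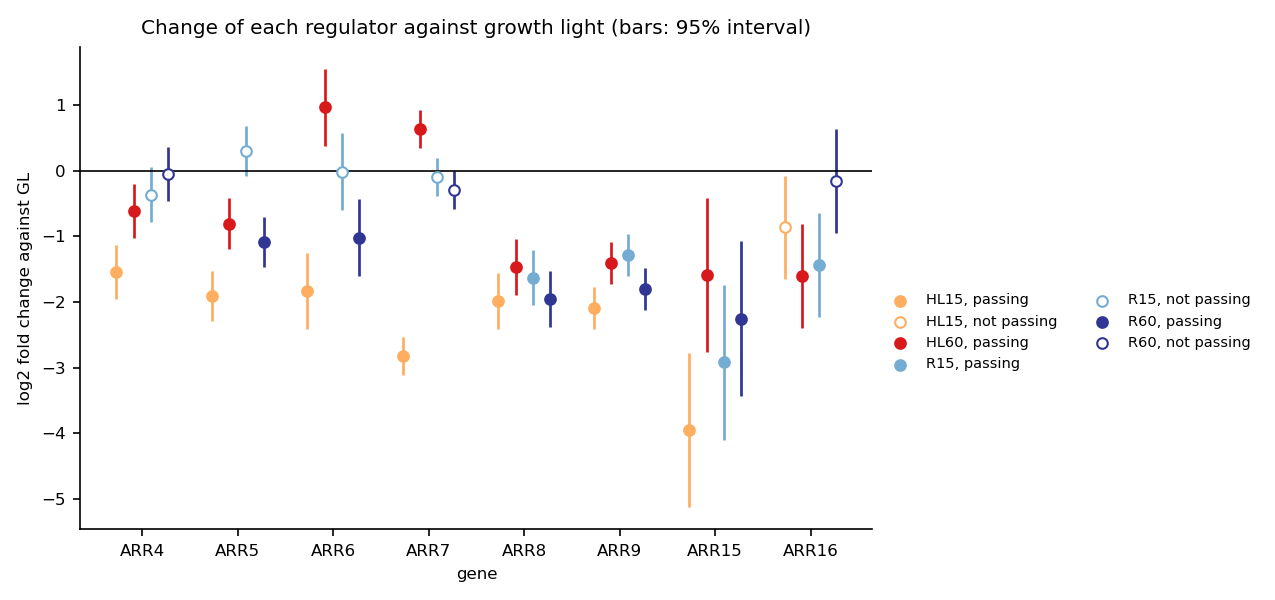
Log2 fold change against GL (vertical axis) of each regulator (horizontal axis) in the 4 later conditions, with 95% intervals as bars, filled points for changes with an adjusted p under 0.05 and open points for the others. ARR6 and ARR7 are the 2 genes above 0 at HL60, at 0.97 and 0.64. ARR8, ARR9 and ARR15 are filled and below 0 in all 4 comparisons.

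After 60 min of HL the family had split. ARR6 and ARR7 stood above GL and the other 6 regulators below it, and all 8 passed the test. In this comparison 19.4% of all genes were called higher and 19.4% lower, and the median log2 fold change was -1.11 over the regulators and within 0.01 of 0 over all genes. ARR7 had 658, 774 and 646 normalized counts at HL60, against 489, 463 and 380 at GL, and ARR6 had 637, 761 and 775 at HL60, against 396, 385 and 329 at GL. No HL60 library of either gene overlapped with GL, and 23.7% of all genes tested had every HL60 library above every GL library. The log2 fold changes were 0.64 ± 0.135 for ARR7 (SE, adjusted p = 0.00166) and 0.97 ± 0.273 for ARR6 (adjusted p = 0.0117). AT5G62910, which overlaps the end of ARR6, was higher by a log2 fold change of 0.92 in the same comparison (adjusted p = 1.34e-05), and its part in the ARR6 value was not tested.

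The relatives of these genes stayed low at HL60. ARR5 had 116, 125 and 95 normalized counts at HL60, below 195, 202 and 187 at GL (log2 fold change -0.80, adjusted p = 0.0026). ARR15 had 20.8, 47.1 and 50.6 normalized counts at HL60, below 140, 120 and 85.8 at GL (log2 fold change -1.59, adjusted p = 0.0333). ARR8 had 269, 211 and 191 normalized counts and ARR9 had 332, 247 and 307, and both lay 2.66-fold to 2.76-fold below GL (adjusted p = 4.57e-05 for ARR8 and 4.21e-06 for ARR9). ARR16 reached its lowest library here, with 6.64, 14.8 and 24.8 normalized counts at HL60, against 45.6, 40.0 and 44.0 at GL (log2 fold change -1.60, adjusted p = 0.00329).

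ARR4 had 980.0, 1733 and 1478 normalized counts at HL60, against 2364, 2121 and 1801 at GL, a log2 fold change of -0.62 (adjusted p = 0.0209). The call on ARR4 was lost without GL replicate 1 (adjusted p = 0.085), GL replicate 2 (0.0564) or HL60 replicate 1 (0.0799), and with HL60 and GL fitted alone (0.0768). The call on ARR15 was lost without the same libraries, at adjusted p values of 0.103, 0.0824 and 0.111.

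Set against HL15, the HL60 libraries showed how far each gene came back while the light stayed high. Of the 8 regulators 6 were higher at HL60 than at HL15 and none was lower, in a comparison in which 18.3% of all genes were called higher and 17.4% lower. ARR7 was 11-fold and ARR6 6.95-fold higher, with log2 fold changes of 3.46 ± 0.135 (SE, adjusted p = 5.07e-09) and 2.80 ± 0.273 (adjusted p = 4.64e-06). AT5G62910, beside ARR6, was at 0.87 (adjusted p = 3.69e-05). ARR15 followed at 2.36 ± 0.549 (adjusted p = 0.00417), ARR5 at 1.11 (adjusted p = 0.000305), ARR4 at 0.93 (adjusted p = 0.00201) and ARR9 at 0.68 (adjusted p = 0.00283). ARR8 missed the threshold with a log2 fold change of 0.51 (95% interval 0.09 to 0.94, adjusted p = 0.058), and so did ARR16 at -0.73 (adjusted p = 0.138). In 7 genes, all but ARR16, each HL60 library lay above each HL15 library, and this held for 21.8% of all genes tested.

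**Figure D3:**
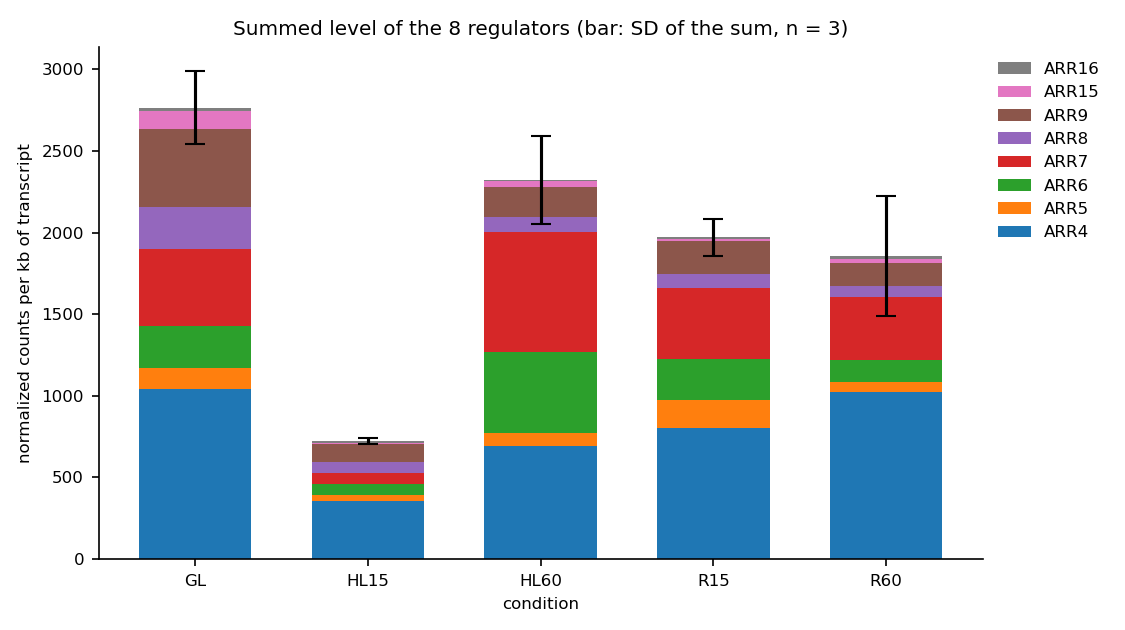
Summed level of the 8 regulators in normalized counts per kb of transcript (vertical axis, from 0) in the 5 conditions (horizontal axis), stacked by gene, with the SD of the sum over 3 libraries as a black bar. The sum is 723 at HL15 and 2764 at GL, and the ARR6 and ARR7 layers are thickest at HL60.

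The make-up of the family therefore differed between conditions even where its sum was close. ARR7 made up 17.0% ± 0.904 of the summed counts per kb at GL, 9.07% ± 0.641 at HL15 and 31.7% ± 2.48 at HL60 (SD, n = 3 each). ARR6 made up 21.4% ± 1.23 at HL60 and 9.16% ± 0.257 at GL. ARR4 held 37.5% ± 2.07 at GL, 49.0% ± 1.26 at HL15 and 54.6% ± 5.17 at R60. ARR8 gave 3.70% of the sum at R60 and 9.42% at GL, and ARR9 gave 7.53% at R60 and 17.5% at GL.

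The return to growth light asked whether the transcripts went back to their GL levels. At R15, 4 regulators passed as lower than GL and none as higher, where 22.9% of all genes were called lower and 22.9% higher. The median log2 fold change was -0.82 over the regulators and 0.01 over all genes. ARR8, ARR9, ARR15 and ARR16 were the ones below GL. ARR8 had 277, 157 and 178 normalized counts at R15, against 599, 603 and 637 at GL (log2 fold change -1.63 ± 0.199, SE, adjusted p = 1.29e-05). ARR9 had 361, 296 and 309 at R15, against 761, 757 and 824 at GL (-1.28 ± 0.149, adjusted p = 7.98e-06). Both genes lay far from GL in each library.

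ARR15 was the most uneven gene at R15, with 36.1, 6.18 and 11.8 normalized counts or 36, 5 and 11 reads, against 140, 120 and 85.8 normalized counts at GL (log2 fold change -2.92, 95% interval -4.09 to -1.74, adjusted p = 0.000557). ARR16 had 13.4, 13.7 and 19.7 normalized counts at R15, against 45.6, 40.0 and 44.0 at GL (-1.43, adjusted p = 0.00549).

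ARR4, ARR5, ARR6 and ARR7 did not pass against GL at R15. ARR7 had 463, 391 and 386 normalized counts at R15, all within the range of the GL libraries. ARR6 had 322, 355 and 425, against 396, 385 and 329 at GL, with 1 library below and 1 above the GL range, while AT5G62910 was higher by 0.81 on the log2 scale (adjusted p = 3.35e-05). The intervals limit how far they could lie from GL, at -0.39 to 0.19 on the log2 scale for ARR7 and -0.60 to 0.57 for ARR6. ARR5 had 265, 183 and 288 normalized counts at R15, against 195, 202 and 187 at GL, with an interval of -0.08 to 0.69 (adjusted p = 0.182). ARR4 had 1608, 1618 and 1633, all below the lowest GL library of 1801, with an interval of -0.78 to 0.05 (adjusted p = 0.142).

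Against HL60, 1 regulator was higher and 2 were lower after the first 15 min of recovery, while 11.6% of all genes were called higher and 11.7% lower. ARR5 was the one that rose, with 265, 183 and 288 normalized counts at R15, against 116, 125 and 95 at HL60 (log2 fold change 1.11 ± 0.18, SE, adjusted p = 0.000448). ARR7 and ARR6 fell, by 0.74 on the log2 scale (adjusted p = 0.00109) and by 0.98 (adjusted p = 0.0172). AT5G62910 was at -0.11 (adjusted p = 0.506). The libraries of the 2 conditions did not overlap for any of these 3 genes, and over all genes tested 16.4% had every R15 library above and 16.8% every R15 library below HL60. The call on ARR6 was lost without HL60 replicate 2 (adjusted p = 0.0555) or R15 replicate 1 (0.0584).

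At R60, 5 regulators were lower than GL and none was higher, with 22.1% of all genes called lower and 21.4% higher. The median log2 fold change was -1.05 over the regulators and -0.02 over all genes. ARR8 had 155, 187 and 137 normalized counts at R60, against 599, 603 and 637 at GL, and it stood 3.85-fold below GL (adjusted p = 2.49e-06). ARR9 had 285, 192 and 203 at R60, against 761, 757 and 824 at GL, and stood 3.49-fold below (adjusted p = 3.37e-07). The libraries of both genes overlapped with their HL15 libraries in range.

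ARR5 had 91.0, 95.8 and 87.8 normalized counts at R60, against 195, 202 and 187 at GL (log2 fold change -1.08, adjusted p = 0.000206). ARR6 spread over 308, 183 and 106 normalized counts at R60, against 396, 385 and 329 at GL (-1.02, adjusted p = 0.00731), while AT5G62910 was higher by 1.07 on the log2 scale (adjusted p = 2.49e-06). ARR15 had 25, 28.7 and 16.7 normalized counts at R60, against 140, 120 and 85.8 at GL (-2.25, adjusted p = 0.00403). All these R60 libraries lay below all GL libraries of the same gene, as in 28.8% of all genes tested.

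ARR4, ARR7 and ARR16 did not pass against GL at R60. ARR4 had 2722, 1776 and 1681 normalized counts at R60, on both sides of the GL libraries, with an interval of -0.46 to 0.36 on the log2 scale. ARR16 had 41.7, 48.9 and 28.3, also around GL, with an interval of -0.94 to 0.64. ARR7 had 327, 433 and 332, partly below GL, with a log2 fold change of -0.29 (adjusted p = 0.1).

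Between 15 and 60 min of recovery 3 regulators fell and 1 rose, where 20.2% of all genes were called lower and 20.8% higher. ARR5 showed the clearest fall, with 91.0, 95.8 and 87.8 normalized counts at R60, against 265, 183 and 288 at R15 (log2 fold change -1.39 ± 0.18, SE, adjusted p = 3.39e-05). ARR6 fell by 1.00 on the log2 scale (adjusted p = 0.009), with AT5G62910 at 0.26 (adjusted p = 0.0673), and ARR9 by 0.52 (adjusted p = 0.0117). ARR16 rose, with 41.7, 48.9 and 28.3 normalized counts at R60, against 13.4, 13.7 and 19.7 at R15 (1.28 ± 0.369, adjusted p = 0.0129). The number that passed was 2 without R60 replicate 2, where ARR9 and ARR16 were lost, and 2 with R15 and R60 fitted alone, where ARR6 and ARR9 were lost.

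Compared with HL60, the R60 libraries had 2 regulators higher and 3 lower, in a comparison added after the values were seen, with 23.0% of all genes called higher and 21.4% lower. ARR6 was 3.96-fold lower (log2 fold change -1.99, adjusted p = 4.32e-05) and ARR7 1.91-fold lower (adjusted p = 6.89e-05), both with no overlap of libraries, and 23.1% of all genes had every R60 library below HL60. AT5G62910 was at 0.15 (adjusted p = 0.286). ARR16 rose by 1.44 on the log2 scale (adjusted p = 0.00551) and ARR4 by 0.56 (adjusted p = 0.0283), and ARR9 passed at the margin (-0.39, adjusted p = 0.0448). With HL60 and R60 fitted alone 2 of the 5 passed, ARR6 and ARR7.

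Within a library the ratio of 2 genes does not depend on how libraries were scaled, so the pairs were also followed that way. The log2 ratio of ARR6 over ARR5 was 2.70 ± 0.294 at HL60 (SD, n = 3; range 2.46 to 3.03), against 0.92 ± 0.101 at GL (range 0.82 to 1.02). At HL15 it was 1.01 ± 0.221, close to GL, and at R15 it was 0.60 ± 0.338. The ARR5 and ARR6 counts thus fell by similar amounts by HL15, and ARR6 rose more than ARR5 between HL15 and HL60. AT5G62910, which overlaps ARR6, was at 0.87 on the log2 scale in that comparison, and its part in the ratio was not tested. With 3 libraries against 3, an exact permutation test of such a ratio cannot give a two-sided p below 0.1, and none was run.

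ARR7 over ARR15 stood at 3.31 ± 1.06 at HL15 and 4.23 ± 0.677 at HL60, against 1.97 ± 0.170 at GL (SD, n = 3 each). It was 4.90 ± 1.16 at R15 and 3.98 ± 0.308 at R60, so each library after GL had more ARR7 for its ARR15 than any GL library. ARR9 over ARR8 stayed between 0.24 ± 0.282 at HL15 and 0.70 ± 0.277 at R15, with 0.35 ± 0.022 at GL, and its libraries overlapped with GL at HL15, HL60 and R60. All R15 libraries of that ratio lay above GL, at 0.39 to 0.91 against 0.33 to 0.37.

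**Figure D4:**
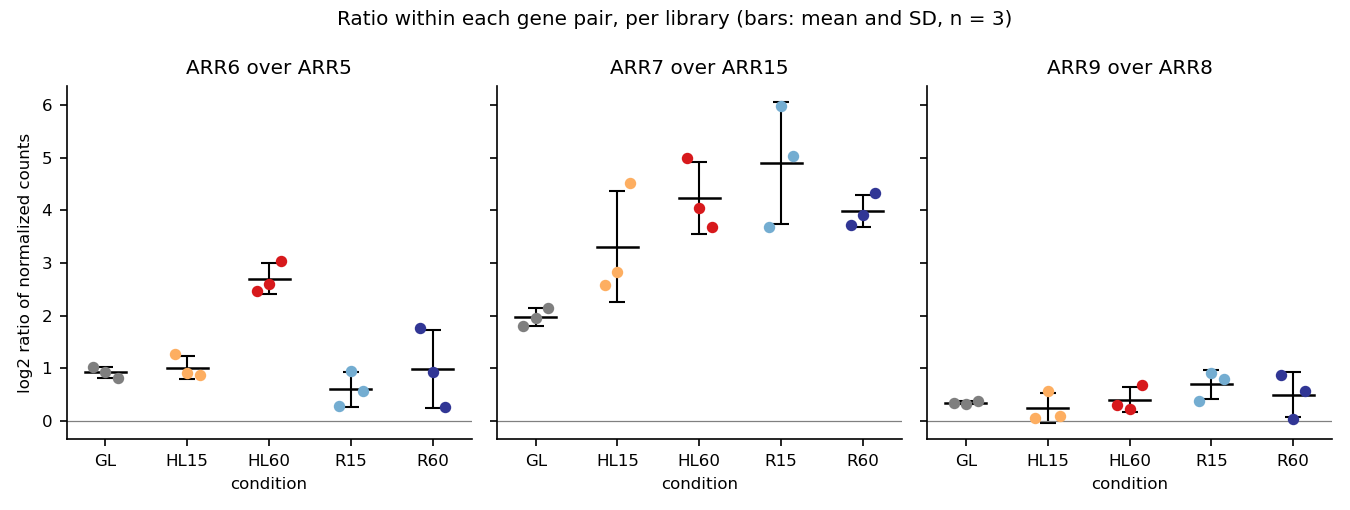
Log2 ratio of the normalized counts of 2 related genes (vertical axis) in each library of the 5 conditions (horizontal axis), with black bars for the mean and SD of 3. ARR6 over ARR5 peaks at HL60 (2.46 to 3.03), ARR7 over ARR15 is above GL in all other conditions, and ARR9 over ARR8 stays between 0.04 and 0.91.

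Over the 15 libraries ARR8 and ARR9 had the closest patterns of any 2 regulators, with a Pearson r of 0.933 of their log2(value + 1), followed by ARR6 and ARR7 at 0.841. ARR16 had r values of -0.29 with ARR6 and -0.10 with ARR7. Searched against 12825 genes with a mean of 100 normalized counts or more, ARR8 was most like the transcription factor gene BZIP9 (r = 0.947), AT1G29660 (0.942) and ARR9. ARR9 was most like the potassium transporter gene KUP5 (0.948), ACR5 (0.944) and again AT1G29660 (0.936). ARR7 was nearest to AT5G52070 (0.941), the cation exchanger gene CHX20 (0.906) and SFH3 (0.899), and ARR6 to the deubiquitinase gene OTLD1 (0.918), AT5G10460 (0.904) and AT2G21860 (0.899). For ARR5 these were AT3G06750 (0.947), AT3G61750 (0.898) and BGLU33 (0.874), and for ARR15 AT5G59690 (0.898), SUVR2 (0.874) and AT1G60560 (0.862). ARR4 had AT1G53250 (0.92), the guard cell marker FAMA (0.914, listed as FMA) and AT2G10940 (0.903), and ARR16 had POR (AT4G39920, 0.922), SLY1 (0.913) and AT1G53050 (0.912). These r values describe 15 libraries that share 5 conditions and 1 normalization.

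Upstream of the type-A genes, the receptor genes AHK2 and AHK3 were below GL in the last 3 conditions, and AHK4 was below GL at HL15 and above it at R60. No other receptor change passed. AHK2 had 204 to 257 normalized counts at HL60, against 636 to 742 at GL (log2 fold change -1.56, adjusted p = 2.15e-05). AHK3 fell to 1046 to 1270 at R15, against 1940 to 2148 at GL (-0.83, adjusted p = 2.25e-06). AHK4 had 521 to 771 at R60, against 166 to 220 at GL (1.73, adjusted p = 0.000425). Of 5 phosphotransfer genes tested, AHP5 was higher at HL15 (0.63, adjusted p = 0.0102) and AHP3 was lower at R60 (-0.45, adjusted p = 0.0175). AHP4, too low to be named by the rule and chosen after its values were seen, had 13.6 to 24.8 normalized counts at R15 and 7.61 to 44.0 at R60, against 1.12 to 5.11 at GL. Its log2 fold changes were 2.56 at R15 (adjusted p = 0.00356) and 2.93 at R60 (adjusted p = 0.00143).

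Among 6 type-B regulators tested 2 were lower at HL15 and 5 at each later condition, and none was higher. Among all genes, the share called lower ran from 13.2% for HL15 to 22.9% for R15, with 19.4% for HL60 and 22.1% for R60. The 5 were not the same set throughout. ARR14 did not pass at HL60 or R15, and was lower at R60 (log2 fold change -1.06, adjusted p = 5.79e-05). ARR11, too low to be named by the rule, passed at HL60 and R15 but not at R60 (adjusted p = 0.212). ARR2 had 32.2 to 42.1 normalized counts at R15, against 83.8 to 106 at GL (log2 fold change -1.34, adjusted p = 5.55e-05). ARR10 and ARR12, main carriers of the cytokinin response together with ARR1, were at -1.23 (adjusted p = 0.000353) and -1.14 (adjusted p = 2.63e-05) at R15, and ARR1 was at -1.06 at R60 (adjusted p = 0.00147).

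The KMD genes encode F-box proteins that target type-B regulators for breakdown. Of 4 genes, KMD1, KMD3 and KMD4 passed as lower than GL in both HL conditions and also in R15 leaves. Over all genes 13.2% were called lower at HL15, 19.4% at HL60 and 22.9% at R15. The 3 genes higher than GL at R60 were another set, namely KMD2, KMD3 and KMD4, where 21.4% of all genes were called higher. KMD2, too low to be named by the rule, had 8.92 to 87.0 normalized counts at R60, against 4.71 to 6.98 at GL. It did not pass in the earlier conditions. KMD1 did not pass at R60, with 42.8 to 424 normalized counts. KMD4 had 95 to 149 normalized counts at HL60, against 2267 to 2700 at GL (log2 fold change -4.29, adjusted p = 1.44e-07). At R60 KMD4 had 2461 to 5932 normalized counts, and its lowest library there lay within the GL range. KMD1 had 1.06 to 6.93 at HL60, against 177 to 261 at GL. KMD3 was listed at 0 in all HL15, HL60 and R15 libraries, against 33.3 to 63.8 normalized counts at GL, and it lay at 325 to 1037 at R60.

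The cytokinin response factors (CRF) are a group of AP2/ERF transcription factors, some of which respond to cytokinin. Of 6 genes 0 passed in limma at HL15, where 1 was lower at an unadjusted p under 0.05. In each of the 3 later conditions 5 were higher than GL and none was lower. The CRF gene that did not pass was CRF4 at HL60 and R15, and CRF2 at R60, with 108 to 152 normalized counts there. CRF2 had 2046 to 2650 normalized counts at R15, against 92.7 to 150.1 at GL (log2 fold change 4.28, adjusted p = 1.58e-08). CRF3 had 176 to 322 at R15, against 2.22 to 3.77 at GL. CRF5 was at 2.51 at R15 (adjusted p = 0.000128) and CRF6 at 1.79 at HL60 (adjusted p = 6.22e-07).

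Of 9 genes of cytokinin synthesis and activation 0 passed in limma at HL15, where 2 were higher and 1 lower at an unadjusted p under 0.05. At R15 3 were higher and 1 lower, where 22.9% of all genes were called higher and 22.9% lower. Among the higher was LOG1, whose enzyme releases the active hormone. It had 1064 to 1269 normalized counts at R15, against 187 to 239 at GL (log2 fold change 2.49, adjusted p = 1.71e-06). IPT3, which makes the first step of synthesis, was at 1.21 at R15 (adjusted p = 0.00062), and LOG8 was at -1.35 at HL60 (adjusted p = 6.67e-06). At R60 2 of the 9 were lower and none was higher, where 22.1% of all genes were called lower and 21.4% higher. The 2 were LOG1 at -0.63 (adjusted p = 0.0497) and IPT3 at -0.75 (adjusted p = 0.0168). At an unadjusted p under 0.05 in limma 2 were higher and 2 lower. Of 8 genes for breakdown and conjugation 4 were lower at HL15 and none higher, where 13.2% of all genes were called lower and 11.4% higher. At HL60 3 were lower and none higher, where 19.4% of all genes were called lower and 19.4% higher. At R15 3 were lower and 2 higher, and at R60 4 were lower and 2 higher. UGT76C2 and UGT76C1, which attach glucose to cytokinins, were lower in all 4 conditions. UGT76C2 had 2.19 to 11.9 normalized counts at HL60, against 297 to 356 at GL, and UGT76C1 was at -1.72 at R15 (adjusted p = 1.61e-07). Of the oxidase genes, CKX5 was at -1.64 (adjusted p = 0.0288) and CKX4 at -0.72 (adjusted p = 0.328) at HL15. At R15 CKX4 was at 2.41 (adjusted p = 0.00131) and CKX5 at 0.60 (adjusted p = 0.36).

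**Figure D5:**
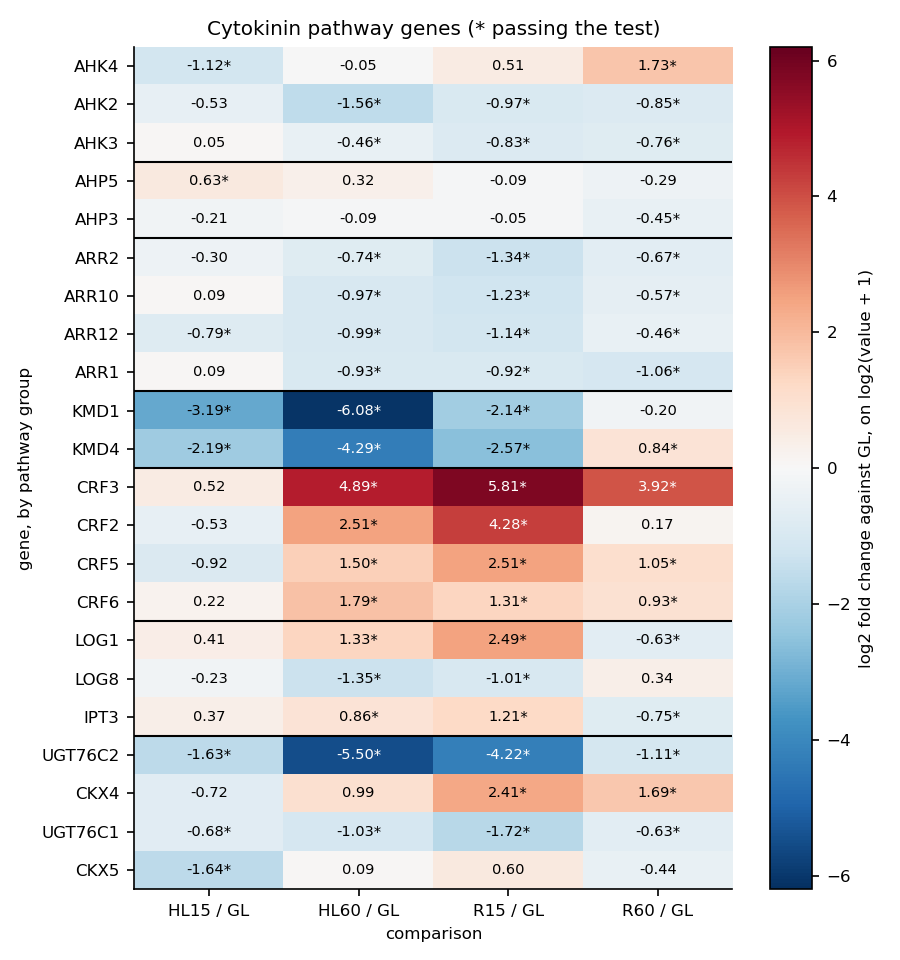
Log2 fold change against GL, on log2(value + 1), for named genes of the cytokinin pathway (rows, split by lines into receptors, phosphotransfer proteins, type-B regulators, KMD, CRF, synthesis and breakdown) in the 4 later conditions (columns), with red for higher, blue for lower and a star for an adjusted p under 0.05. KMD3 is left out because it was listed at 0 in 3 of the conditions. From HL60 on the CRF rows are red and the type-B rows are blue, except CRF2 at R60, which is pale and without a star.

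GL leaves were taken before the HL began and the other leaves later, so time of day and light cannot be told apart against GL. The later conditions also differed in the time since the HL began. Time and light treatment therefore cannot be told apart among them either. Clock genes differed between these libraries. Of 8 tested, 3 were higher and 1 lower than GL at HL15, 5 and 1 at HL60, 5 and 2 at R15, and 4 and 3 at R60. For R60 against HL60 3 were higher and 5 lower. Over all genes 11.4% were called higher and 13.2% lower than GL at HL15, and 19.4% and 19.4% at HL60. At R15 these shares were 22.9% and 22.9%, and at R60 they were 21.4% and 22.1%. For R60 against HL60 the shares were 23.0% and 21.4%. The morning gene LHY had 44.8 to 80.7 normalized counts at R60, against 733 to 854 at GL (log2 fold change -3.79, adjusted p = 1.38e-09), and GI had 2381 to 3241 at HL60, against 283 to 332 at GL (3.16, adjusted p = 1.4e-09). The pseudo-response regulator gene PRR5 had 366 to 1302 normalized counts at R60, against 2.22 to 4.99 at GL, and PRR3 had 132 to 193 at R60 and was listed at 0 in all GL libraries. Their part in the values of the type-A genes was not tested.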

How the data were processed

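Leaf RNA of 15 libraries was analysed. Per the labels and the study's methods, the authors quantified reads with Salmon (0.12) on TAIR cDNA (build TAIR10) and used DESeq2. The deposited signal is a table of normalized counts per gene, scaled between libraries by the authors and not raw counts. Low values of genes with 1 annotated transcript were whole multiples of 1 read (tolerance 0.01, up to 200 reads), but those of all genes were so in 59.95% to 63.33%, so no count model was used. Read numbers are given for genes with 1 transcript.

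The main test was limma 3.58.1 (R 4.3.3) on log2(value + 1), a pseudocount of 1, with 1 coefficient for each of the 5 conditions in 1 fit of all 15 libraries and a variance trend. Genes with a sum under 10 (1081) were left out, 20512 were tested, and p-values were adjusted by Benjamini-Hochberg over all of them. A gene passed at an adjusted p under 0.05. The 8 comparisons include R60 against HL60, added after the values were seen. Comparisons with GL share its 3 libraries. The fit was tested on simulated data. Intervals of the log2 fold changes are at 95%.

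All regulators in the table are named. From each pathway list at most 4 genes are named, those with the largest absolute log2 fold change against GL among genes passing there with a mean of 20 or more. The 3 most similar genes were taken by Pearson r. The regulators and lists were chosen with earlier results of these data known. Alternatives covered scaling, pseudocount, filter, replicate block, pairwise fits, variance trend and single libraries. Sequences and locations are from RefSeq TAIR10.1, in which 21390 of the 21593 genes were found.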

Additional observations from a re-analysis of the deposited data

Results flagged for a closer look

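ARR6 moved in opposite directions against GL at the 2 HL times, at 0.97 on the log2 scale for HL60 and -1.83 for HL15, and the direct difference of 2.80 between HL60 and HL15 passed the test (limma, adjusted p = 4.64e-06). It did so again between recovery and HL, at -1.02 for R60 and 0.97 for HL60, with a difference of -1.99 (adjusted p = 4.32e-05). ARR7 moved in opposite directions at 0.64 for HL60 and -2.82 for HL15, with a difference of 3.46 (adjusted p = 5.07e-09). These cases were picked because both changes against GL passed with opposite signs, so the direct differences are not separate evidence. AT5G62910, which overlaps ARR6, was at 0.92 for HL60 against GL, 0.87 for HL60 against HL15 and 0.15 for R60 against HL60. Its part in the ARR6 values was not tested.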

How the results depend on the processing

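The 42 passing changes of the regulators were recomputed under 24 alternatives, which gave 1008 values. Of these 974 kept their direction and stayed past the threshold, 34 no longer passed and 0 changed sign. The number of regulators passing for R60 against R15 was 4, and it was 2 with only the 2 conditions compared. For R60 against HL60 it was 5, and 2 with only the 2 conditions compared. Leaving out single libraries gave 2 to 4 for R60 against R15 and 3 to 6 for R60 against HL60, the lowest without R60 replicate 2 and without HL60 replicate 1. With the replicate block the number was 7 for HL15, 8 for HL60, 4 for R15 and 5 for R60 against GL, and ARR8 also passed for HL60 against HL15 (7 regulators) and for R60 against HL60 (6). Libraries with the same replicate number showed little shared deviation over all genes: 2 of 30 pairs had a correlation over 0.1 (range -0.0829 to 0.137). Both were HL15 with R15, at 0.137 for replicate 1 and 0.116 for replicate 2. A batch that touched few genes would not show in these correlations, and the labels give only the number. ARR9 for R60 against HL60 was the least stable call. ARR15 at HL15 rests on 3 to 13 reads per library.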
